A study of Mus musculus with 12 samples.

Results

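Sebaceous glands coat mouse skin and hair with wax esters, cholesterol esters and triglycerides. The data described here are the RNA levels of 10 genes of that synthesis, taken by gene name from a table of 36400 genes: *Awat1*, *Awat2*, *Dgat2l6*, *Far2*, *Fa2h*, *Soat1*, *Scd1*, *Scd3*, *Mc5r* and *Cidea*. All 10 were found in the table, and all 10 averaged 0.1 FPKM or more (fragments scaled by transcript length and library size) over the libraries, which left them among the 21890 genes tested. They were measured in RNA from dorsal skin of female BALB/c mice in an atopic dermatitis-like model, with 4 groups of 3 libraries. Atopic dermatitis is a chronic itching inflammation of the skin, and the model used the contact sensitizer 2,4-dinitrochlorobenzene (DNCB).

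Mice were 6 weeks old at purchase, and their backs were cleared of hair before the schedule started. The back was shaved again late in the challenges, shortly before day 25. The Solvent group received the vehicle alone, acetone and olive oil at 3 parts to 1. The other groups all received DNCB on the back and the right ear, at 1% for sensitization and at 0.5% for the challenges of days 12 to 27. The DNCB group received no cells. Mesenchymal stem cells (MSCs) from human umbilical cord were given to the scMSC group 4 times between day 13 and day 25, 2000000 cells in 100 µL beneath the dorsal skin each time. In the scivMSC group 50 µL of the suspension went beneath the skin and the other 50 µL into a tail vein. Skin was collected on day 30. The MSC groups therefore carry the DNCB treatment too, and no group received cells or culture solution without DNCB. The labels do not tie a library to a mouse, so the p-values below measure the spread between these libraries.

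Sebocytes, the lipid-filled cells of the sebaceous gland, make fatty acids, desaturate and elongate them, reduce a share of them to fatty alcohols and join alcohols and acids into wax esters. Each sebocyte fills with lipid droplets, bursts and releases its content as sebum, so the gland renews its cells throughout life. Mice that lack *Scd1* have shrunken sebaceous glands, and mice that lack *Mc5r* make less sebum and shed water poorly from their fur. In whole skin RNA, fewer cells of a type and less RNA per cell cannot be told apart.

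The total of estimated counts was 63877153 to 75134001 per library, and about 4 estimated counts were taken as 1 fragment. Of the counts from 1 to 18, only 38.9% to 41.2% per library were multiples of 4, so that scale and the floor built on it are approximate. Levels are given as FPKM, which corrects for gene length and library size. Differences are log2 fold changes from edgeR's quasi-likelihood test on the estimated counts, with the standard error (SE), n = 3 libraries per group and p-values adjusted by the Benjamini-Hochberg method over all tested genes. A gene was called if its adjusted p was below 0.05 and its fold change exceeded 1 on the log2 scale in either direction. With library size alone as the scaling, the median of all tested genes in DNCB minus Solvent moved from 0.02 to 0.20, and the lower calls from 1656 of 3098 to 1301 of 3321. FPKM carry that same library-size scaling.

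On chromosome X, 3 of the members lie near each other, and a pair lies in the cluster of stearoyl-CoA desaturases on chromosome 19. How far their values can be told apart depends on how alike their sequences are. In GRCm38, the build of the coordinates in the file, *Awat2* (X:100402221-100442717, minus strand), *Dgat2l6* (X:100524838-100546144, plus strand) and *Awat1* (X:100572251-100578205, plus strand) span 175.985 kb with 5 annotated genes. Their coding sequences, taken from GENCODE M21, were 60.8% identical between *Awat1* and *Awat2*, 58.3% between *Awat1* and *Dgat2l6* and 58.1% between *Awat2* and *Dgat2l6*, and no stretch of 100 bases was shared between their transcripts. The 90 coding bases of exon 7 in which the 3 genes are most alike are shown because they carry the distinction between the 3 measurements. Capitals mark the 36 positions at which the genes differ, and the other 54 are the same in all.
*Awat1*, X:100577778-100577867, plus strand: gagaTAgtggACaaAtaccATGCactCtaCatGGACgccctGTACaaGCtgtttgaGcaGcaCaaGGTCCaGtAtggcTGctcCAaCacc
*Awat2*, X:100402807-100402896, minus strand: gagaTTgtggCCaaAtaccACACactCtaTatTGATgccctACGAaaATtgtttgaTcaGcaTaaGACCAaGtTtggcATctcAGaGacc
*Dgat2l6*, X:100545490-100545579, plus strand: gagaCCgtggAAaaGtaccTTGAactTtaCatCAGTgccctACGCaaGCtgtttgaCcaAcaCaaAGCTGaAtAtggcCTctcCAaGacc
Even in this stretch, *Awat2* and *Dgat2l6* each differed from *Awat1* at 24 bases, so the reads of the 3 genes can be told apart.

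The desaturases are much closer to each other. *Scd3* (19:44203269-44244016, plus strand) and *Scd1* (19:44394455-44407709, minus strand) face each other across 204.441 kb that also hold *Scd2* and *Scd4*, and their coding sequences were 91.5% identical, with 1 run of 185 identical bases. Of the 100-base stretches of the transcript, 1.82% of those of *Scd1* occurred in *Scd3* and 2.54% of those of *Scd3* in *Scd1*. The stretch of exon 4 below, 90 bases of coding sequence, is the same in *Scd1* (19:44401716-44401805), *Scd3* (19:44235864-44235953) and *Scd2* (19:44299702-44299791), and is shown as an example of sequence whose reads have no single source.
*Scd1*, *Scd3* and *Scd2*, exon 4: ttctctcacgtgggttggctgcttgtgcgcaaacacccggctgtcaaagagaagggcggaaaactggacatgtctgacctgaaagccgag
The 90 bases of exon 2 in which the same 3 genes are least alike show the other extreme, with capitals at the 30 positions at which they differ.
*Scd1*, 19:44406620-44406709, minus strand: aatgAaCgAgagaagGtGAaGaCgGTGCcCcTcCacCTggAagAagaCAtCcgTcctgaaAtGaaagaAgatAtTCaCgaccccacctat
*Scd3*, 19:44215462-44215551, plus strand: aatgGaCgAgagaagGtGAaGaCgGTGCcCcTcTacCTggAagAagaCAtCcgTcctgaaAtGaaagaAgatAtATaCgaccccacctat
*Scd2*, 19:44294964-44295053, plus strand: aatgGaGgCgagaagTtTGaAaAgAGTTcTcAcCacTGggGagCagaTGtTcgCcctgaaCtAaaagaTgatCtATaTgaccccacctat
There *Scd2* differed from *Scd1* at 29 bases and *Scd3* at only 4. A part of the reads could thus be split either way between *Scd1* and *Scd3*, and their single values carry that uncertainty.

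DNCB skin held less RNA of every member than Solvent skin. All 10 genes were called lower in DNCB minus Solvent, where 7.57% of the 21890 tested genes were called lower and 6.59% higher. Their log2 fold changes ran from -5.53 for *Scd3* to -1.04 for *Soat1*, with a median of -3.08 against 0.02 over all tested genes. In FPKM, every DNCB library lay below every Solvent library for all 10 members, as for 16.1% of the tested genes. Summed over the members, the level was 678 to 824 FPKM in Solvent libraries and 86.8 to 113 FPKM in DNCB libraries, of which *Scd1* alone made up 52.9% to 77.7% per library over the 12 libraries.

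**Figure D1:**
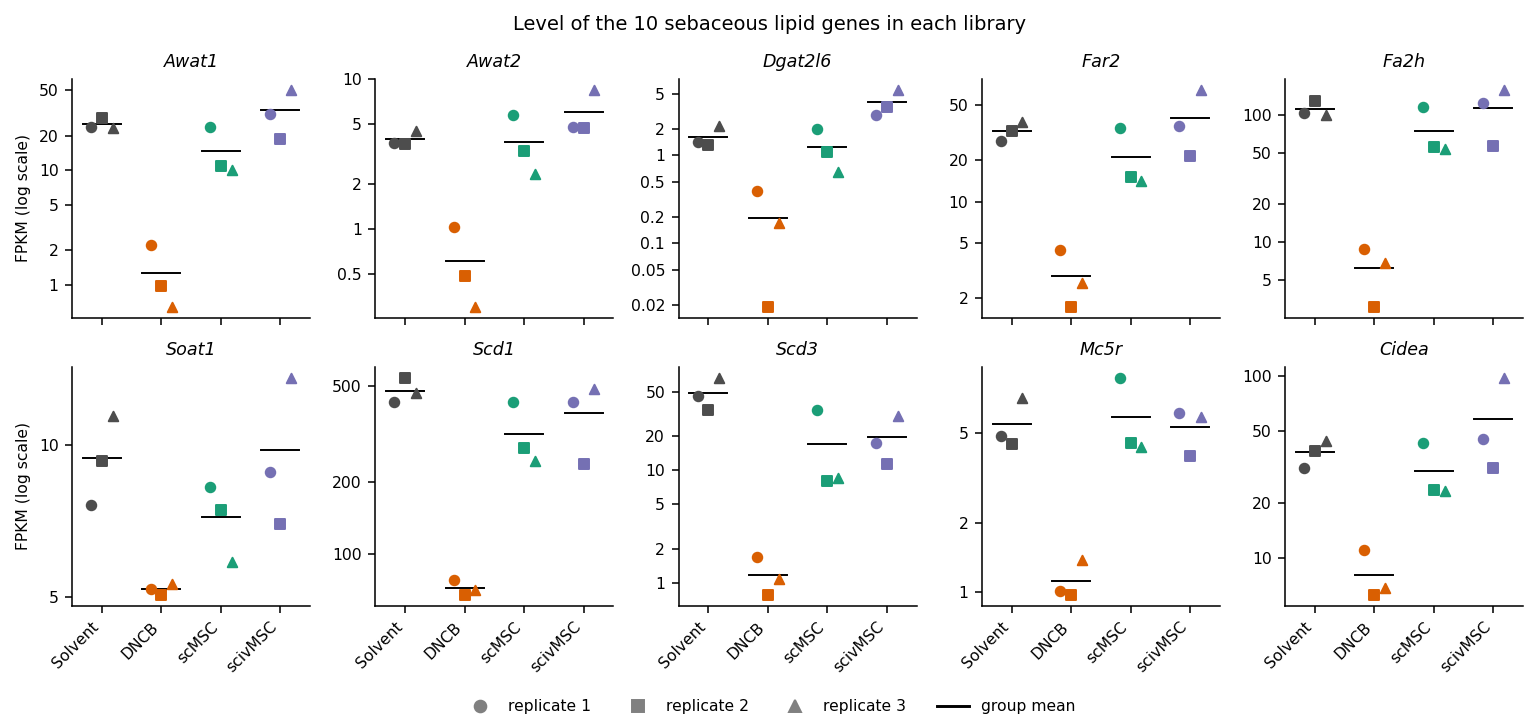
FPKM of each gene (log axis, its range set per gene) in the 3 libraries of each group, with a marker shape per replicate number and a line at the group mean. The DNCB libraries are the lowest 3 in all 10 panels, and the *Soat1* panel spans the narrowest range, 5.06 to 13.5 FPKM.

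*Awat1* and *Awat2* encode acyl-CoA wax alcohol acyltransferases, which join a fatty alcohol to an acyl chain and so make the wax ester. *Awat1* stood at 24.1, 28.9 and 23.6 FPKM in the Solvent libraries and at 2.22, 0.975 and 0.641 FPKM in the DNCB libraries. The DNCB mean was 5.01% of the Solvent mean, and the level fell by 4.51 ± 0.56 (SE) on the log2 scale (edgeR, adjusted p = 0.000749). *Awat2*, which also esterifies retinol, was at 3.77, 3.70 and 4.48 FPKM in Solvent and at 1.04, 0.491 and 0.304 FPKM in DNCB. Both genes had the same order of libraries within DNCB, with replicate 1 highest and replicate 3 lowest. *Awat2* fell by 2.87 ± 0.48 on the log2 scale (edgeR, adjusted p = 0.00221).

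In the MSC groups both genes were back within or above the Solvent range in some libraries. *Awat1* reached 23.7, 10.9 and 10.01 FPKM in scMSC and 31.0, 18.7 and 50.7 FPKM in scivMSC. Against DNCB it rose by 3.55 ± 0.54 in scMSC (edgeR, adjusted p = 0.00299) and by 4.74 ± 0.57 in scivMSC (adjusted p = 0.00319) on the log2 scale. *Awat2* reached 5.78, 3.33 and 2.33 FPKM in scMSC and 4.81, 4.68 and 8.49 FPKM in scivMSC. Its rises over DNCB were 2.64 ± 0.48 (edgeR, adjusted p = 0.00591) and 3.30 ± 0.49 (adjusted p = 0.0054). Every scMSC and scivMSC library lay above every DNCB library for both genes. All 3 scivMSC libraries lay above all 3 Solvent libraries for *Awat2*, and among the other members for *Dgat2l6*, as for 24.3% of the tested genes.

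Within a library, *Awat1* was 5.25 to 7.82 times as high as *Awat2* in FPKM in Solvent libraries and 1.99 to 2.13 times as high in DNCB libraries, with no overlap. In scMSC the ratio was 3.27 to 4.29, between those ranges, and in scivMSC it was 4.00 to 6.44. No test was run on ratios between members, here or below, and the share of all gene pairs without overlap was not counted.

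*Far2* encodes a fatty acyl-CoA reductase, which supplies the fatty alcohol for the wax ester. It lies on chromosome 6 (6:148047259-148176849, plus strand). Its Solvent libraries read 27.6, 32.8 and 38.0 FPKM, and its DNCB libraries 4.47, 1.74 and 2.56 FPKM. That is a fall by 3.67 ± 0.52 on the log2 scale (edgeR, adjusted p = 0.00114), to 8.92% of the Solvent mean. With 34.0, 15.04 and 14.1 FPKM in scMSC and 35.3, 21.4 and 64.9 FPKM in scivMSC, the gene was above all DNCB libraries in every MSC library. The differences from DNCB were 2.86 ± 0.50 (edgeR, adjusted p = 0.00501) and 3.83 ± 0.52 (adjusted p = 0.00415). *Far1*, the more widely expressed reductase, stayed between 0.919 and 3.28 FPKM over the 12 libraries and was not called in DNCB minus Solvent (log2 fold change 0.39 ± 0.39, adjusted p = 0.516), scMSC minus DNCB or scivMSC minus DNCB.

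*Dgat2l6* belongs to the diacylglycerol acyltransferase 2 family and was the lowest member. Its levels were 1.40, 1.32 and 2.16 FPKM in Solvent and 0.398, 0.0191 and 0.171 FPKM in DNCB. DNCB replicate 2 held 8 estimated counts, under the 12 estimated counts, or 3 fragments, taken as the detection floor. The log2 fold change of -3.23 ± 0.78 (edgeR, adjusted p = 0.0122) had the largest SE of any member in this comparison. In scMSC the gene was at 2.01, 1.08 and 0.646 FPKM, and in scivMSC at 2.90, 3.49 and 5.55 FPKM. No scMSC library fell to the DNCB range, but the call in scMSC minus DNCB (2.68 ± 0.77, edgeR, adjusted p = 0.043) rested close to the threshold and was lost without any of 8 of the 12 libraries, with adjusted p up to 0.132. In scivMSC minus DNCB the difference was 4.37 ± 0.82 (adjusted p = 0.012). That call was lost without DNCB replicate 3 (adjusted p = 0.0511). All scivMSC libraries of *Dgat2l6* lay above all scMSC libraries, as for no other member and for 5.16% of the tested genes.

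*Fa2h* encodes fatty acid 2-hydroxylase, which adds the hydroxyl group found in many skin ceramides and sebaceous lipids, and lies on chromosome 8 (8:111345135-111393824, minus strand). Solvent libraries held 103, 128 and 99.8 FPKM. DNCB libraries held 8.83, 3.11 and 6.84 FPKM. After *Scd3* and *Awat1*, it had the largest fall, by 4.33 ± 0.51 on the log2 scale (edgeR, adjusted p = 0.000611). It stood at 114, 55.3 and 54.0 FPKM in scMSC and at 124, 56.8 and 157 FPKM in scivMSC. In scMSC 1 library and in scivMSC 2 libraries were above the Solvent mean of 110.3 FPKM, and all 6 were above DNCB. The differences from DNCB were 3.58 ± 0.49 (edgeR, adjusted p = 0.00231) and 4.19 ± 0.51 (adjusted p = 0.00319).

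*Soat1* encodes sterol O-acyltransferase, which esterifies cholesterol, and is used in many cell types besides sebocytes. The gene lies on chromosome 1 (1:156424525-156474331, minus strand). It read 7.59, 9.29 and 11.4 FPKM in Solvent and 5.19, 5.06 and 5.31 FPKM in DNCB. The groups did not overlap, and the SD of the DNCB libraries was 0.126 FPKM. The fall by 1.04 ± 0.25 on the log2 scale (edgeR, adjusted p = 0.0114) was the smallest of the 10 and just past the fold threshold; without Solvent replicate 3 it was 0.96 and not called. MSC libraries read 8.26, 7.45 and 5.87 FPKM in scMSC and 8.82, 6.97 and 13.5 FPKM in scivMSC. All were above DNCB, but *Soat1* was the 1 member not called in either MSC group, at 0.50 ± 0.25 (adjusted p = 0.239) and 0.94 ± 0.25 (adjusted p = 0.0423, under the fold threshold). Its relative *Soat2*, the form known from intestine and liver, went the other way. It was at 0.0244 to 0.121 FPKM in Solvent and 0.716 to 1.93 FPKM in DNCB, called higher in DNCB minus Solvent (4.09 ± 0.69, adjusted p = 0.00226) and lower in scMSC and scivMSC minus DNCB.

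*Scd1* and *Scd3* encode stearoyl-CoA desaturases, which put the double bond into palmitoyl and stearoyl chains. *Scd1* was the most abundant member, with 429.7, 543 and 467 FPKM in Solvent and 77.5, 67.4 and 70.6 FPKM in DNCB. The DNCB libraries were close to each other here, with an SD of 5.15 FPKM. *Scd1* fell by 2.93 ± 0.31 on the log2 scale (edgeR, adjusted p = 0.000489), the smallest adjusted p of the 10. *Scd3*, the form known from sebaceous gland and other skin cells, was at 45.5, 34.0 and 66.3 FPKM in Solvent and at 1.68, 0.784 and 1.09 FPKM in DNCB. It fell by 5.53 ± 0.68 (edgeR, adjusted p = 0.000714), to 2.44% of its Solvent mean, the largest fall among the members.

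In the MSC groups *Scd1* was at 432, 275 and 244 FPKM in scMSC and at 431, 237 and 488 FPKM in scivMSC, and its differences from DNCB were 2.16 ± 0.30 (edgeR, adjusted p = 0.00231) and 2.45 ± 0.30 (adjusted p = 0.00324). *Scd3* was at 34.6, 8.01 and 8.57 FPKM in scMSC and at 17.6, 11.4 and 30.6 FPKM in scivMSC, and its differences from DNCB were 3.84 ± 0.63 (adjusted p = 0.00391) and 4.10 ± 0.64 (adjusted p = 0.00618). All scivMSC libraries of *Scd3* stayed below all Solvent libraries, as for no other member and for 10.3% of the tested genes. In ratio, *Scd1* was 7.04 to 16.0 times as high as *Scd3* in Solvent, 46.0 to 86.0 times in DNCB, 12.5 to 34.3 times in scMSC and 16.0 to 24.5 times in scivMSC. Between them on the chromosome, *Scd2* varied from 4.72 to 68.6 FPKM over the 12 libraries, was not called in DNCB minus Solvent (0.44 ± 0.88, adjusted p = 0.77) and spanned 4.72 to 39.4 FPKM in Solvent alone, and *Scd4* was at most 0.317 FPKM.

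**Figure D2:**
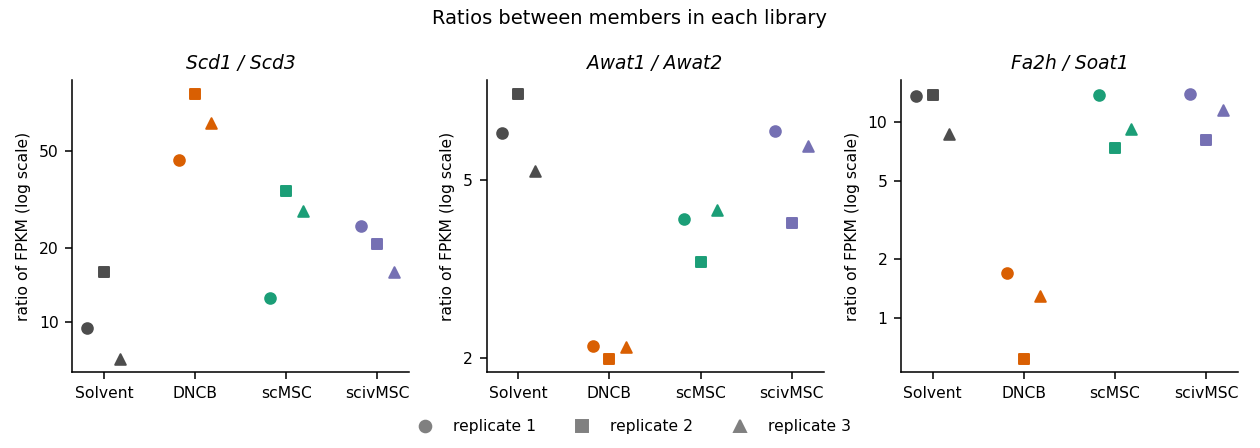
Ratio of the FPKM of 2 members within each library (log axes), with a marker shape per replicate number. DNCB libraries stand apart from Solvent libraries in each panel, above them for *Scd1* over *Scd3* (46.0 to 86.0 against 7.04 to 16.0) and below them for *Awat1* over *Awat2* (1.99 to 2.13 against 5.25 to 7.82) and *Fa2h* over *Soat1* (0.614 to 1.70 against 8.75 to 13.8). Each ratio restates how unequally its 2 genes fell. Of the ratios not shown, *Cidec* over *Cidea* overlapped (2.05 to 7.44 against 1.15 to 2.29). *Awat1* over *Far2*, *Scd1* over *Scd2* and *Far2* over *Far1* did not.

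*Cidea* encodes a protein of the lipid droplet surface that promotes droplet fusion and is known from sebocytes and brown fat. The gene lies on chromosome 18 (18:67343604-67367785, plus strand). The Solvent values were 31.2, 38.7 and 44.1 FPKM and the DNCB values 10.9, 6.24 and 6.79 FPKM. The level fell by 2.43 ± 0.43 on the log2 scale (edgeR, adjusted p = 0.00289). In scMSC it was at 42.6, 23.6 and 23.3 FPKM, and in scivMSC at 44.7, 31.1 and 97.8 FPKM, the latter the highest value of the gene in any library. It was higher than in DNCB by 1.92 ± 0.43 in scMSC (edgeR, adjusted p = 0.0146), a call lost without DNCB replicate 2 or replicate 3 (adjusted p up to 0.0643), and by 2.89 ± 0.44 in scivMSC (adjusted p = 0.00567). *Ucp1*, the defining gene of brown fat, was at 0 to 0.251 FPKM in all 12 libraries. Of 6 brown adipocyte markers, *Ucp1* included, 3 were called lower in DNCB minus Solvent. Among these, *Cox8b* and *Cox7a1*, which muscle also uses, had means of 314 and 138 FPKM in Solvent and 59.5 and 23.0 FPKM in DNCB. Which cells held the *Cidea* RNA was not tested. The related *Cidec*, known from white fat, was also called lower in DNCB (-1.02 ± 0.34, adjusted p = 0.0475), while *Cideb* was at most 0.329 FPKM.

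*Mc5r* encodes the melanocortin 5 receptor, which receives melanocortin peptides on sebocytes, and is the 1 receptor among the members. It lies on chromosome 18 as well (18:68337596-68342446, plus strand). Its levels were 4.84, 4.47 and 7.14 FPKM in Solvent and 1.01, 0.972 and 1.37 FPKM in DNCB. The receptor fell by 2.46 ± 0.31 on the log2 scale (edgeR, adjusted p = 0.000724). MSC libraries read 8.74, 4.50 and 4.33 FPKM in scMSC and 6.14, 3.95 and 5.87 FPKM in scivMSC, so the group means were 107% and 97.1% of the Solvent mean. The receptor rose over DNCB by 2.40 ± 0.31 (edgeR, adjusted p = 0.00199) and 2.26 ± 0.30 (adjusted p = 0.00415). Of 7 other genes of the melanocortin axis, 5 were tested and none was called in DNCB minus Solvent by edgeR. *Mc1r*, the pigment cell receptor, was at 0.0296 to 0.677 FPKM in Solvent and 0.492 to 1.55 FPKM in DNCB (1.32 ± 1.04, adjusted p = 0.394).

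Across members, 9 of 10 were called higher in scMSC minus DNCB, where 4.66% of the tested genes were called higher and 3.84% lower, and 9 of 10 in scivMSC minus DNCB, where the shares were 3.13% and 2.33%. The median differences over the members were 2.66 and 3.56, against 0.02 over all tested genes in both. These comparisons and DNCB minus Solvent share the DNCB libraries, so their values are not independent of each other. In FPKM, every MSC library lay above every DNCB library for all 10 members in both groups, as for 16% and 16.4% of the tested genes.

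**Figure D3:**
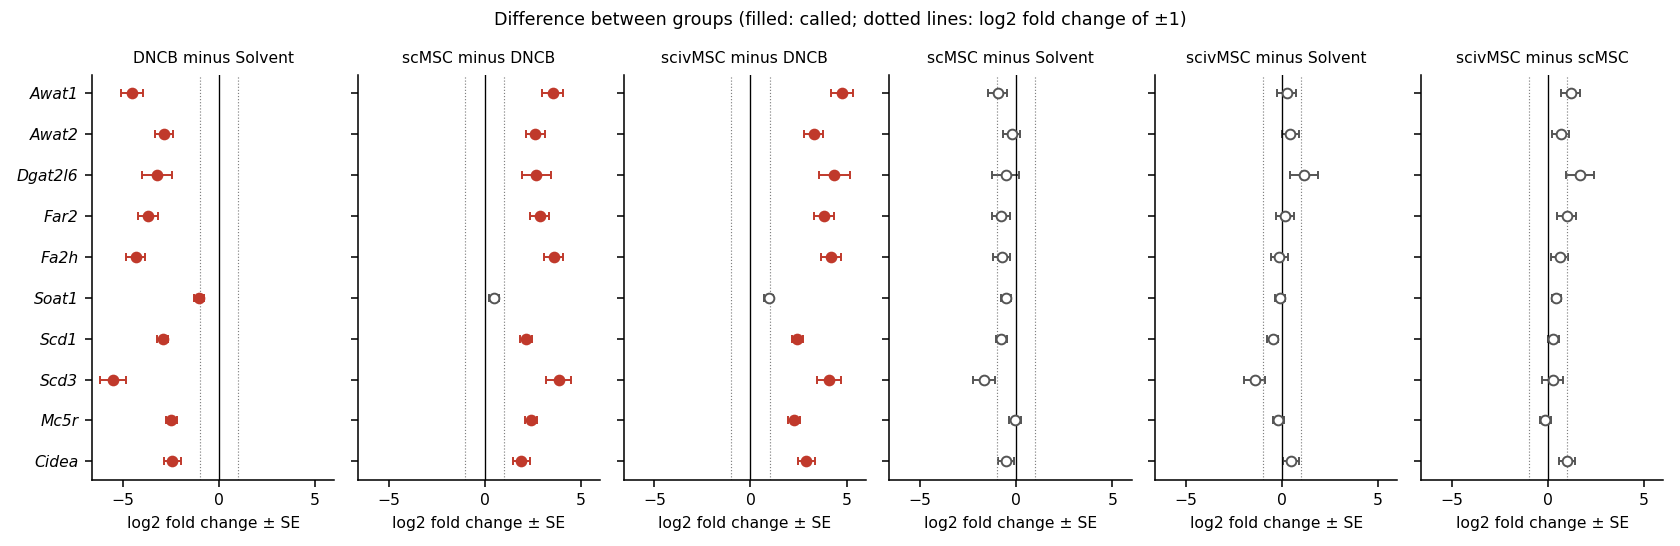
Log2 fold change with its SE (edgeR, n = 3 libraries per group) of each gene in the 6 comparisons between groups, filled where the gene was called. Every gene lies left of 0 in DNCB minus Solvent, every gene lies right of 0 in the MSC groups minus DNCB, and no point is filled in the 3 panels on the right.

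Set against Solvent, no member was called by edgeR in scMSC or scivMSC. Of all tested genes, 4.2% were called lower and 5.12% higher in scMSC minus Solvent, and 3.35% and 3.5% in scivMSC minus Solvent. At an unadjusted p under 0.05, 3 members were lower in scMSC (*Scd3*, *Scd1* and *Soat1*) and 1 in scivMSC (*Scd3*), where 32.3% and 28% of all tested genes passed that level in either direction, so the members' counts were not above the share of all genes. DESeq2 called 1 member in each comparison, *Scd3* in both. *Scd3* was also the member with the lowest group means, at 35.1% and 40.8% of Solvent, and its differences were -1.69 ± 0.57 (edgeR, adjusted p = 0.0645) and -1.43 ± 0.57 (adjusted p = 0.128). The intervals of 2 SE on either side, -2.83 to -0.54 and -2.57 to -0.30, lay below 0.

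For the other members the distance from Solvent was smaller, and for some of them its sign was less settled. In scMSC minus Solvent the intervals of 2 SE also lay below 0 for *Scd1* (-1.34 to -0.20) and *Soat1* (-1.04 to -0.05). In scMSC minus Solvent all 10 estimates were negative, from -1.69 to -0.07 with a median of -0.65, but that of *Mc5r* was above 0 with library size alone and with limma. In scivMSC minus Solvent 5 of 10 were negative, with a median of 0.03. *Awat1*, *Far2* and *Cidea* had estimates of 0.23 ± 0.48, 0.16 ± 0.47 and 0.46 ± 0.41 in scivMSC minus Solvent, and all 3 turned negative without scivMSC replicate 3. The widest intervals of 2 SE were those of *Dgat2l6*, -1.97 to 0.88 in scMSC and -0.29 to 2.57 in scivMSC, so differences of more than 2-fold from Solvent are within reach for it. In scMSC they were also within reach for every other member except *Mc5r*, as for *Awat1* (-1.93 to 0.02). In scivMSC the intervals of *Awat2* and *Cidea*, among others, passed 2-fold too, reaching 1.33 and 1.29. For *Mc5r* the intervals were -0.64 to 0.51 and -0.78 to 0.38.

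The routes of injection were compared by scivMSC minus scMSC. No member was called by edgeR, DESeq2 or limma. Over the whole table edgeR called 1 gene, 0.00457%, DESeq2 115 genes and limma 1 or 2 genes, by pseudocount. Of the 10 estimates, 9 were above 0, with *Dgat2l6* at 1.69 ± 0.73 (adjusted p = 0.658), *Awat1* at 1.19 ± 0.49 (adjusted p = 0.641) and *Cidea* at 0.98 ± 0.41 (adjusted p = 0.652). These 3 had an unadjusted p under 0.05, as had 7.5% of all tested genes. The intervals of 2 SE, 0.23 to 3.14, 0.21 to 2.17 and 0.15 to 1.81, do not show that the routes gave the same level. *Mc5r* was at -0.14 ± 0.29, with an interval of -0.71 to 0.44.

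Within the DNCB and MSC groups most members had the same highest library. The share of all tested genes with the same order of libraries was not counted. scMSC replicate 1 was the highest of its group for all 10 members, with 1.24 to 4.17 times the mean of the other libraries of the group. scivMSC replicate 3 was the highest for 9 members, and replicate 2 the lowest for 9. DNCB replicate 1 was the highest of its group for 8 members and replicate 2 the lowest for 8. The members were less alike in Solvent, where replicate 3 was the highest for 7 and the lowest for 2. Solvent replicate 2 was the highest for 3 members and the lowest for 4. In Solvent the ratio of a library to the mean of the other libraries was 0.607 to 1.67. The SD of *Awat1* was 2.95 FPKM in Solvent, 0.830 FPKM in DNCB, 7.66 FPKM in scMSC and 16.1 FPKM in scivMSC.

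Genes outside the list followed the same profile. Over the 12 libraries, the gene nearest to the mean profile of the members was *Elovl6*, an elongase of saturated and monounsaturated chains, with a root mean square difference of 0.0945 in log2(FPKM + 0.1) among the 14376 genes that averaged 1 FPKM or more. It was at 48.7, 63.8 and 79.1 FPKM in Solvent, at 11.3, 5.89 and 7.24 FPKM in DNCB, at 71.8, 34.4 and 33.3 FPKM in scMSC and at 68.5, 43.2 and 104.6 FPKM in scivMSC. That was nearer than any single member, of which *Far2* was nearest at 0.246 and *Soat1* farthest at 0.992. But *Elovl6* was picked as the nearest of 14376 genes, whereas the members were not picked by this distance. The next were *Rdh1* (0.265), a retinol dehydrogenase, *Cers4* (0.268), a ceramide synthase, *Sec14l4* (0.275) and *Rarres1* (0.298). The DNCB means of these 4 genes were 2.51, 2.59, 1.40 and 8.65 FPKM, against 15.9, 16.7, 10.5 and 105 FPKM in Solvent.

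Among 29 other genes of fatty acid synthesis, elongation and desaturation, 12 were called lower in DNCB minus Solvent and none higher, with a median of -0.94. *Elovl3*, which makes long saturated and monounsaturated chains in sebaceous gland and brown fat, fell by 3.29 ± 0.55 on the log2 scale (edgeR, adjusted p = 0.00203), and *Elovl6* fell by 3.15 ± 0.42 (adjusted p = 0.000951). *Elovl4*, which makes the very long chains of skin ceramides and had the highest level of the list, fell by 1.76 ± 0.33 (adjusted p = 0.00355), whereas *Tecr*, the reductase of the elongation cycle, missed the fold threshold at -0.94 ± 0.21 (adjusted p = 0.00749). In scMSC minus DNCB 6 of the 29 were called higher and in scivMSC minus DNCB 7, with *Elovl3* at 2.86 ± 0.54 and 3.60 ± 0.55, and none lower in either.

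**Figure D4:**
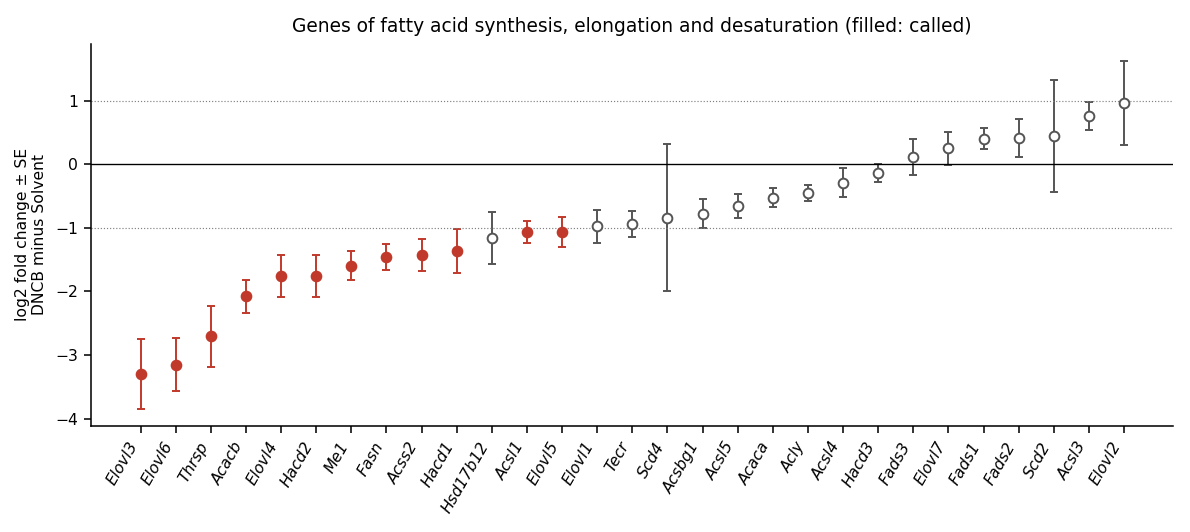
Log2 fold change in DNCB minus Solvent with its SE (edgeR, n = 3 libraries per group) of 29 other genes of fatty acid synthesis, elongation and desaturation, ordered by value and filled where called. The 12 called genes are all below -1, and *Elovl3* and *Elovl6* have the lowest values, -3.29 and -3.15.

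Other lipid lists held fewer called genes or moved both ways in DNCB minus Solvent. Of 18 genes of glycerolipid and sterol acylation and fatty acyl reduction, 4 were called lower and 1 higher. *Dgat2*, the triglyceride enzyme that names the family of *Awat1*, *Awat2* and *Dgat2l6*, fell by 1.40 ± 0.16 on the log2 scale (edgeR, adjusted p = 0.000523), and *Agpat5* and *Gpam*, acyltransferases of glycerolipid synthesis, fell by 1.48 ± 0.22 and 1.33 ± 0.37. *Dgat1* was not called (-0.40 ± 0.21, adjusted p = 0.195), and *Mogat1* and *Mogat2* were at most 0.576 FPKM in any library. Of 17 lipid droplet proteins and lipases, 8 were called lower and 2 higher, with *Mgll*, which cleaves monoglycerides, at -3.17 ± 0.81 (adjusted p = 0.0157) and *Fitm1*, known from muscle, at -2.56 ± 0.36 (adjusted p = 0.00107). *G0s2* and *Hilpda* of that list went the other way, with means of 17.2 and 9.32 FPKM in Solvent and 66.7 and 29.5 FPKM in DNCB. Of 13 transcription regulators of lipid synthesis, 3 were called lower and 1 higher, with *Mlxipl* at -2.45 ± 0.36 (adjusted p = 0.00123) and *Ppara* at -1.49 ± 0.32 (adjusted p = 0.00648). *Ppard* went the other way, with a mean of 2.69 FPKM in Solvent and 7.89 FPKM in DNCB.

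Markers of the gland as a structure did not all move the same way. Of 8 sebaceous gland and duct markers, 1 was called lower in DNCB minus Solvent and none higher. Over all tested genes 7.57% were called lower and 6.59% higher. The 1 called was *Ldhb*, which many tissues use, at -2.15 ± 0.29 (edgeR, adjusted p = 0.000948). Of the 8 estimates, 6 were below 0, with a median of -0.77 against 0.02 over all tested genes. The summed level of the 8 markers was 330 to 345 FPKM in Solvent and 312 to 328 FPKM in DNCB. In that sum the mean of *Ldhb* was 92.3 and 23.7 FPKM and that of *Krt79* 103 and 173 FPKM. *Pparg*, the regulator of sebocyte maturation, named here after its values were seen, was at 4.79, 5.12 and 5.26 FPKM in Solvent and at 3.06, 2.80 and 3.40 FPKM in DNCB (-0.90 ± 0.24, edgeR, adjusted p = 0.0178, under the fold threshold). *Mgst1*, a glutathione transferase found in sebaceous gland, was at -0.70 ± 0.22 (adjusted p = 0.0409). *Krt79*, a keratin of the duct, was at 85.2, 106 and 117 FPKM in Solvent and at 180.1, 168 and 169 FPKM in DNCB (0.57 ± 0.15, adjusted p = 0.0157). None of the 8 markers was at 0 in any library, but how much of their RNA came from the gland was not tested.

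Other cell types moved as well, and their part in the values above was not tested. Neutrophil markers were called higher in DNCB minus Solvent for 6 of 6 genes, with a summed level of 120.4 to 207 FPKM in Solvent, 2456 to 3426 in DNCB, 15.8 to 65.1 in scMSC and 34.2 to 177 in scivMSC. *Ly6g*, which defines them, was at 0 in every library outside DNCB. Stress keratinocyte markers were called higher for 5 of 5 genes (485 to 554 FPKM summed in Solvent, 7083 to 8810 in DNCB), and *Krt6b* was at 5.48 ± 0.91 (edgeR, adjusted p = 0.00201). Fibroblast markers were called higher for 4 of 6 (232 to 346 FPKM in Solvent, 1916 to 2233 in DNCB). Of 7 interfollicular keratinocyte markers 2 were called higher and 1 lower (*Lor*, a protein of the cornified layer, at -2.71 ± 0.36). *Krt14*, among those called higher, had a mean of 895 FPKM in Solvent and 6347 FPKM in DNCB. None of 7 macrophage markers was called in DNCB minus Solvent, though all 7 estimates were above 0, with a median of 0.74. Their summed level was 137, 148 and 518 FPKM in Solvent replicates 1, 2 and 3, and 548 to 578.5 FPKM in DNCB.

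Tissues below and around the gland held genes called lower in DNCB minus Solvent, and fewer of these were called higher in the MSC groups. Skeletal muscle markers were called lower for 6 of 7 genes (14920 to 20950 FPKM summed in Solvent, 4203 to 5814 in DNCB), and none of the 7 was called in scMSC or scivMSC minus DNCB by edgeR. Adipocyte markers were called lower for 6 of 10 (1794 to 2890 FPKM summed in Solvent, 552 to 899.9 in DNCB). Most of that sum was *Car3*, with a mean of 1774 FPKM in Solvent and 388 FPKM in DNCB. Of the 10 markers, 2 and 3 were called higher in scMSC and scivMSC minus DNCB. *Lep*, the hormone leptin, was called lower in scivMSC minus DNCB (-2.39 ± 0.56, edgeR, adjusted p = 0.0283). Among brown adipocyte markers, 3 of 6 were called lower, led by *Cox7a1* (-2.79 ± 0.53) and *Cox8b* (-2.59 ± 0.45), which muscle also uses. Hair shaft and inner root sheath markers were called higher for 2 of 14 tested genes in DNCB minus Solvent, for 10 in scMSC minus DNCB and for 5 in scivMSC minus DNCB. Their summed level was 5.32 to 355 FPKM in Solvent, 313 to 1002 in DNCB, 7686 to 21970 in scMSC and 2783 to 6928 in scivMSC, above Solvent in every MSC library. Of these 14 genes, 14 were called higher in scMSC minus Solvent and 10 in scivMSC minus Solvent.

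**Figure D5:**
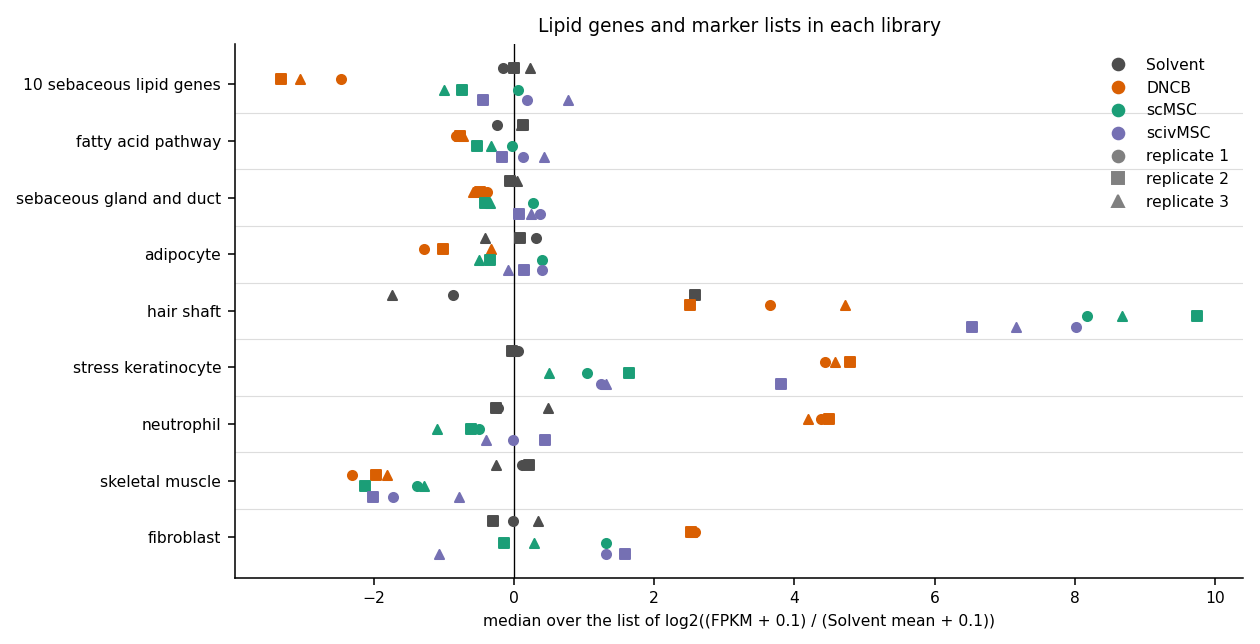
Median over each gene list of the log2 ratio of a library's FPKM + 0.1 to the Solvent mean + 0.1, with a point per library, a colour per group and a marker shape per replicate number. The lipid genes are at -3.33 to -2.46 in DNCB and at -0.99 to 0.77 in the MSC groups, the gland and duct markers at -0.58 to -0.39 in DNCB, and the hair shaft markers at 6.53 to 9.75 in the MSC groups.

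The libraries that were low or high for the members within an MSC group also differed in other lists. In scivMSC, replicate 2, the lowest for 9 members, had a stress keratinocyte sum of 4592 FPKM, against 1165 FPKM in the lowest library of the group. Replicate 3, the highest for 9 members, had the lowest macrophage sum (37.0 FPKM) and fibroblast sum (124 FPKM) of all 12 libraries. In scMSC it was the other way round, since replicate 1, the highest for all 10 members, had the highest macrophage sum (274 FPKM) and fibroblast sum (750 FPKM) of its group.

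*Igbp1*, a phosphatase-binding protein gene that lies between *Awat2* and *Dgat2l6*, was at 9.02 to 12.8 FPKM in all libraries and was at -0.06 ± 0.10 in DNCB minus Solvent (edgeR, adjusted p = 0.723). *Otud6a*, a deubiquitinase gene inside *Awat2* on the other strand, had a mean of 0.183 FPKM. Genes of the other strand that overlap *Cidea*, *Far2*, *Scd3* and *Soat1* had means of at most 0.159 FPKM. Whether strand was used in counting is not given in the sources used here, so reads of these overlaps cannot be assigned.

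Sequence before the transcription start was read for 6 of the 10 members from RefSeq (GRCm38.p6). The 200 bases before the start are shown for the wax enzymes, which lie near each other and fell together, and for *Scd3*, which fell most. The windows of *Scd3* and *Soat1* were shifted 19 and 3 bases upstream of the RefSeq start, to end before the annotated gene start. RefSeq gives another start for *Awat2*, whose window (X:100412588-100412787) is not shown and also held CCAAT. Capitals mark CCAAT, searched on both strands together with AGGTCA, TCACNCCAC and TATAAA.
*Awat1*, X:100572047-100572246, plus strand: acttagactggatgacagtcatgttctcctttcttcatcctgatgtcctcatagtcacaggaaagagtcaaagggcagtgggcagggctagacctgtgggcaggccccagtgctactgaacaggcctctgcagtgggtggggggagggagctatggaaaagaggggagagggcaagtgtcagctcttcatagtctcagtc
*Awat2*, X:100442718-100442917, minus strand: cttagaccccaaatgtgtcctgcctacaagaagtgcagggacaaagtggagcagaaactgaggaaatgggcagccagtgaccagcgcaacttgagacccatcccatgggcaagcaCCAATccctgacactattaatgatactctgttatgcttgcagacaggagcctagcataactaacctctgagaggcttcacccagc
*Scd3*, 19:44203069-44203268, plus strand: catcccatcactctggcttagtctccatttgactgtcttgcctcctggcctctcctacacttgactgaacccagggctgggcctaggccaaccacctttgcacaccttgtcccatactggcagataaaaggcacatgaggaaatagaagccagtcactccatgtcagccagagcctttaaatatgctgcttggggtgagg
CCAAT was found in the windows of *Awat2* and *Soat1* and not in the other 4, and 29.3% of 32851 promoter windows of this length held it. AGGTCA, the half-site of nuclear receptors (11.4% of windows), TCACNCCAC, a sterol regulatory element (0.858%), and TATAAA, the TATA box (9.96%), were not found in the windows of *Awat1*, *Awat2*, *Dgat2l6*, *Far2*, *Scd3* and *Soat1*. No promoter is shown for *Fa2h*, *Scd1*, *Mc5r* and *Cidea*.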

How the data were processed

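RNA-seq of dorsal skin was analysed in 12 libraries, 3 in each of the groups Solvent, DNCB, scMSC and scivMSC, assigned by their GEO titles. The authors deposited FPKM, which they scaled by library size and gene length, together with estimated counts in whole numbers, with no scaling between libraries. The submitters' processing notes name HISAT2 2.0, StringTie 1.3.0, Bowtie 0.12.2 and build mm8, while the gene positions match GRCm38. The counting options are not given in the sources used here. Blood was not analysed here.

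The genes that averaged 0.1 FPKM or more (21890 of 36400) were tested with edgeR 4.0.16 in R 4.3.3 on the estimated counts as deposited, with TMM factors (0.887 to 1.06), the 4 groups in 1 quasi-likelihood model and Benjamini-Hochberg adjustment. The common biological coefficient of variation was 0.42. SE were derived from the F statistic. The steps were tested on simulated data. An exact permutation test of 3 against 3 libraries cannot go below p = 0.1 and was not used. Alternatives changed the scaling, filter, tool (DESeq2 1.42.0, limma 3.58.1), pseudocount, count scale, threshold, libraries fitted and the replicate block, or left out each library in turn. Coding sequences were aligned from GENCODE M21. No 2 libraries held identical values. Tables and figures used Python 3.11.15, pandas 2.3.3 and matplotlib 3.10.9. SE and floors cover no losses before sequencing, and counting floors cover counting error only.

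The members and the 15 gene lists were chosen with earlier results of these data known. Named genes were drawn from the members, their relatives by protein family, the 5 genes nearest to the members' mean profile and, from each list, the 2 called genes with the largest change in DNCB minus Solvent and the 2 with the highest level. Not every gene under that rule is named. *Lep*, *Ucp1*, *Pparg*, *Ppard*, *G0s2*, *Hilpda*, *Igbp1*, *Otud6a* and the overlapping genes fall outside it and were chosen after their values were seen. Of the listed genes, 2 were not found in the file.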

Additional observations from a re-analysis of the deposited data

How the results depend on the processing

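In DNCB minus Solvent, scMSC minus DNCB and scivMSC minus DNCB no member changed direction under any alternative. The members called ranged over 9 to 10, 7 to 9 and 8 to 10 when a library was left out, and with the replicate number as a block 10, 8 and 9 were called. In scMSC minus Solvent, where 0 members were called, 1 was called (*Scd3*, lower) with genes of at least 1 FPKM, with DESeq2, with limma on log2(FPKM + 0.1) and log2(FPKM + 1) and with the replicate block, and 0 to 2 when a library was left out, the 2 (*Scd3* at -2.67 and *Scd1* at -1.02) without scMSC replicate 1 and 1 without scivMSC replicate 3. In scivMSC minus Solvent 1 was called (*Scd3*) with DESeq2, and 0 to 1 when a library was left out, the 1 without scMSC replicate 1. The replicate block called 0 members there and 0 in scivMSC minus scMSC. Libraries with the same replicate number correlated at -0.185 to 0.133 in their deviations from group means, over 0.1 for 1 of 18 pairs, so the numbers were not taken to pair them. The block ended 1 call among the members, that of *Dgat2l6* in scMSC minus DNCB (adjusted p = 0.0508).

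No estimate that turned sign was called. These were, with library size alone *Mc5r* 0.0957 in scMSC minus Solvent, and *Fa2h* 0.0263 and *Soat1* 0.0519 in scivMSC minus Solvent, and with limma on log2(FPKM + 0.1) and log2(FPKM + 1) *Mc5r* 0.0473 and 0.0454 and *Soat1* 0.0164 and 0.0176. The cause was not tested. Leaving out a library gave ranges that crossed 0. In scMSC minus Solvent they were -0.61 to 0.0312 for *Awat2* and -0.43 to 0.11 for *Mc5r*. In scivMSC minus Solvent they were -0.28 to 0.54 for *Awat1*, -0.45 to 0.48 for *Far2* and -0.24 to 0.78 for *Cidea*, each negative without scivMSC replicate 3, and -0.53 to 0.19 for *Fa2h* and -0.49 to 0.11 for *Soat1*, each positive without scivMSC replicate 2. In scivMSC minus scMSC they were -0.24 to 1.24 for *Scd3* and -0.32 to 0.23 for *Mc5r*. Of 1320 alternative values of single members, 1270 kept direction and side of the threshold, 21 turned sign, 18 fell below the threshold and 11 passed it. *Soat1* in DNCB minus Solvent missed the fold threshold with library size alone (-0.86) and with limma (-0.83 and -0.74). *Dgat2l6* in scMSC minus DNCB was also not called with the 6 libraries fitted alone or with limma on log2(FPKM + 1) (0.88). Depth limits *Dgat2l6* in DNCB, where 1 library was under the floor.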
